A study of Rattus norvegicus with 6 samples.

Results

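VEGF and angiopoietin signaling was followed as 10 genes taken by symbol: the ligands Vegfa, Vegfb, Vegfc and Pgf, the VEGF receptors Flt1 and Kdr, the receptors Tek and Tie1, and the Tek ligands Angpt1 and Angpt2. Of these, 9 were found by symbol in the 28293 genes of the table, each in 1 row, and all 9 passed the filter on low values (a mean of at least 0.5 FPKM). Flt1, which encodes VEGFR1, was not analysed here. The study sequenced myocardium of wild-type male rats with and without reperfusion injury, asking about protection by the chaperone Hsp27. In the 3 rats labelled I/R, called MI/RI here, a suture closed the left anterior descending coronary artery for 30 min and was then released, and the hearts were taken after 6 h of reperfusion. The labels of the 3 Sham rats carry the same 30 min and 6 h and do not describe the sham operation itself. P-values measure the spread between these 6 samples. The region of the heart sampled is not given in the sources used here, and in bulk tissue fewer cells of a type and less RNA per cell cannot be told apart.

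Members of the VEGF family are secreted dimers that act on receptor tyrosine kinases of endothelial cells, which line the vessels. Vegfa binds both Flt1 and Kdr, Kdr carries most of the angiogenic and permeability signal, and Vegfb and Pgf bind Flt1 but not Kdr. The angiopoietins form the other arm: Angpt1, made largely by cells around the vessel, activates Tek and keeps the endothelium quiescent, whereas Angpt2 is released by endothelial cells and can block or activate Tek depending on context. Tie1 has no ligand of its own in this scheme and modulates Tek.

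Expression was given as FPKM, the fragments per kilobase of gene scaled to library size, so levels of different genes can be set side by side per length. The steps between low FPKM values were those of whole fragments, and the fragments behind each value could be recovered as the smallest whole numbers in the same ratio. For the 9 genes they ran from 77 (Angpt1, MI/RI replicate 2) to 10995 (Vegfa, Sham replicate 2). Relative to Sham replicate 1, the depth was 1.18 and 1.14 in Sham replicates 2 and 3. In the MI/RI rats it was 0.873, 0.935 and 0.881, below every Sham rat. The 13 mRNAs of mitochondrial DNA took 80.1% to 86.2% of the summed FPKM in the Sham group and 61.8% to 71.5% in the MI/RI group, and on a scale set by the library total their share bears on the level of every other gene. The results below are therefore also given on scales that do not carry this shift, by ratios within a sample and on a mitochondria-free scale, in which each library was rescaled to its sum without those 13 mRNAs. Summed FPKM of 9 cardiomyocyte markers was 3796 to 12469 in the Sham group and 26206 to 38087 in the MI/RI group, with 8 of the 9 called higher. The 14 endothelial markers summed to 298 to 386 and to 339 to 380 FPKM. In the fit without a block on the replicate number, 0 of them passed the test in either direction on the deposited scale. Of the same 14, 2 were called lower with median centring, 8 with quantile normalization and 6 on the mitochondria-free scale, with median log2 fold changes of −0.22, −0.73 and −0.75. Of all genes tested, 14.2%, 14.2% and 25.9% were called lower on these scales. The 10 mural markers (pericytes and smooth muscle) summed to 109 to 296 and 164 to 349 FPKM with 2 higher and 2 lower, the 8 fibroblast markers to 423 to 584 and 610 to 672 FPKM with 2 of 8 higher, and the 9 leukocyte markers to 55.5 to 71.0 and 78.9 to 145 FPKM with 2 of the 6 tested higher. The 5 lymphatic endothelial markers summed to 9.82 to 16.3 and 8.19 to 15.01 FPKM, with 1 of the 3 tested higher. Of all genes tested on the deposited scale, 25.5% were called higher and 7.36% lower. The shares called higher were 88.9% of the cardiomyocyte, 20% of the mural, 25% of the fibroblast and 33.3% of the leukocyte and of the lymphatic markers tested. Apart from the cardiomyocyte share they lie near that of all genes, while 20% of the mural markers were called lower. No marker of these lists was at 0 in all 6 samples, and the cardiomyocyte markers had the highest summed level in each of them. The part of these shifts in the results was not tested, except where a value is given.

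In the comparison of MI/RI with Sham, 2 of the 9 genes rose, the ligands Vegfb and Pgf, and 0 fell (limma on log2(FPKM + 0.1), adjusted p under 0.05). Among all 10942 genes tested, 25.5% were called higher and 7.36% lower, so the 22.2% of the 9 that rose lies near the background. At an unadjusted p under 0.05, 4 of the 9 were higher and 1 lower, beside 33.7% and 11% of all genes. Their median log2 fold change was −0.06, against 0.29 for all genes tested. In 3 genes (Vegfb, Pgf and Kdr) every MI/RI rat was above every Sham rat, which held for 37.2% of all genes, and in 1 gene (Tek) every MI/RI rat was below every Sham rat, which held for 13% of all genes. In a fit that blocked on the replicate number (replicate block), 4 of the 9 were called higher, with Kdr and Angpt2 added, beside 28.2% of all genes called higher and 8.18% lower in that fit. The voom fit on recovered fragments called 3 higher (Kdr added) and 0 lower, beside 26.7% and 7.86% of all genes.

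**Figure D1:**
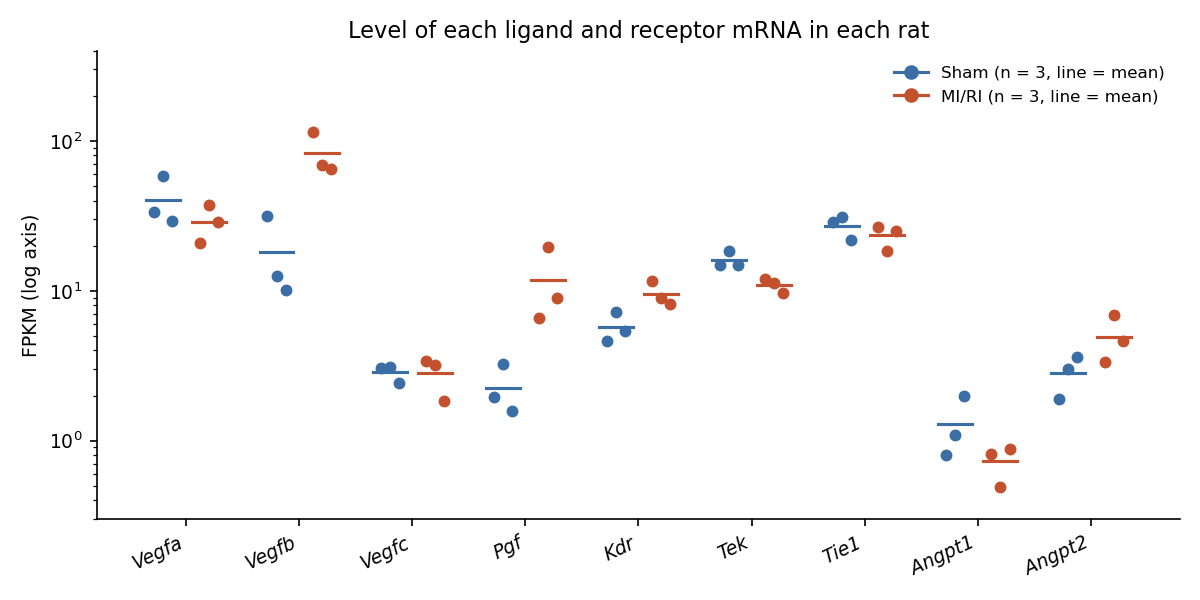
FPKM of the 9 genes in each rat, on a log axis. Points are rats (3 Sham in blue, 3 MI/RI in red) and short lines are group means. The MI/RI points lie above all Sham points for Vegfb, Pgf and Kdr and below them for Tek, and overlap them for the other 5 genes.

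Vegfb (ENSRNOG00000021156), a ligand of Flt1 that is abundant in heart muscle, stood at 31.6, 12.5 and 10.1 FPKM in the Sham rats and at 113.9, 69.2 and 64.7 FPKM in the MI/RI rats, each in the order of replicates 1 to 3, as in all such series here. Every MI/RI rat was at more than the highest Sham rat, and Sham replicate 1 stood above the other Sham rats. The mean rose from 18.0 ± 11.8 to 82.6 ± 27.2 FPKM (SD, n = 3 each). The log2 fold change was 2.33 (standard error, SE, 0.41; limma, adjusted p = 0.0047), a 5.02-fold rise on the log2(FPKM + 0.1) scale, and 1.80% of all genes tested had a larger one. The study shows a heat map of MAPK pathway genes chosen on these samples, and the rise of Vegfb or Pgf, where shown there, is not independent evidence. For Pgf, the study's text reports a rise in a separate comparison of ischemic hearts. It also reports rises by qRT-PCR in ischemic hearts and in hypoxic cardiomyocytes.

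Pgf (ENSRNOG00000005650), which encodes placental growth factor, another ligand of Flt1, was 1.94, 3.25 and 1.58 FPKM in the Sham rats and 6.57, 19.6 and 8.97 FPKM in the MI/RI rats. All MI/RI rats were above all Sham rats, and MI/RI replicate 2 was the highest, from 1208 fragments. The mean went from 2.26 ± 0.881 to 11.7 ± 6.93 FPKM (SD, n = 3 each), with a log2 fold change of 2.23 (SE 0.40; limma, adjusted p = 0.0049). Leaving out MI/RI replicate 2 gave a log2 fold change of 1.79 (limma adjusted p = 0.0079).

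The principal angiogenic ligand, Vegfa (ENSRNOG00000019598), did not share this rise. Its level was 33.7, 58.7 and 29.3 FPKM in the Sham rats and 20.9, 37.4 and 28.7 FPKM in the MI/RI rats. The groups overlapped, since MI/RI replicate 2 lay above Sham replicates 1 and 3. Group means were 40.6 ± 15.9 and 29.0 ± 8.25 FPKM (SD, n = 3 each), and the log2 fold change of −0.46 (95% interval −1.18 to 0.26) did not pass the test (adjusted p = 0.30, limma).

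Vegfc (ENSRNOG00000011416), the lymphangiogenic ligand of Flt4, was between 2.42 and 3.10 FPKM in the Sham rats and between 1.83 and 3.39 FPKM in the MI/RI rats. The groups overlapped and the means were nearly alike (2.86 ± 0.383 and 2.81 ± 0.853 FPKM, SD, n = 3 each). Its log2 fold change was −0.06, with a 95% interval of −0.67 to 0.55.

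Sequence before the annotated start is shown for the ligand genes Pgf, Vegfb and Vegfa. It was taken from RefSeq (rat build GRCr8), where 7 of the 10 genes had an entry and Tek, Angpt1 and Angpt2 had none. The first start listed for each gene was used, and bases inside the annotated gene were left out. Capitals mark the core of the hypoxia response element (ACGTG or GCGTG) and the GC box (GGGCGG), each searched on both strands, so that a match on the other strand appears as its reverse complement. The windows are chr6:110557748-110557997 (minus strand) for Pgf, chr1:213607255-213607402 (minus strand) for Vegfb and chr9:22452604-22452853 (plus strand) for Vegfa, each written 5′ to 3′ on the strand of the gene.
Pgf: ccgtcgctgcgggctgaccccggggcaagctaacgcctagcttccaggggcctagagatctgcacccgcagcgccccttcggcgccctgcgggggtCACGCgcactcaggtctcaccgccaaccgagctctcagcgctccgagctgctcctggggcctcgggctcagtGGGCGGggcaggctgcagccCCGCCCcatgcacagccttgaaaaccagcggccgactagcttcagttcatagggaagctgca
Vegfb: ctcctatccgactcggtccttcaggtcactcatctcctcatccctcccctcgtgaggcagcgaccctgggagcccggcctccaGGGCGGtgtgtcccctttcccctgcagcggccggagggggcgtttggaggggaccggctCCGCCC
Vegfa: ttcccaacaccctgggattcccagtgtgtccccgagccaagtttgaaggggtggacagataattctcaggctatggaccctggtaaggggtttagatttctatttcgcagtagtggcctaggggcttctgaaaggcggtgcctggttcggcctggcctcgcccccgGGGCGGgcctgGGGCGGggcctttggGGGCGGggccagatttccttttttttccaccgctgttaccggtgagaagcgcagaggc
The Pgf window held 1 match to GCGTG and 2 GC boxes, the Vegfa window held 3 GC boxes, and the 148 bases shown for Vegfb held 2 GC boxes. Over the full 250 bases before its listed start, part of which lies inside the annotated gene and is not shown, Vegfb held 1 match to GCGTG and 4 GC boxes. Kdr held 2 matches to GCGTG in its 250 bases, Flt1 held 1, and Tie1 and Vegfc held 0. ACGTG had 0 matches in the windows of these genes. Among 33469 rat windows of 250 bases, 16.6% held ACGTG, 25.9% GCGTG and 30.5% the GC box. The AP-1 motif TGANTCA, present in 6.34% of the windows, had 0 matches in the windows of these genes. The motifs do not overlap each other in the printed windows, and a match describes letters only. Only the 250 bases before a start were searched, so an element farther away would not be seen. Whether any match bears on which ligand rose was not tested.

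The ligands were next compared with each other within each rat, where a scaling factor of the library cancels. Vegfa was 47.9%, 75.7% and 67.6% of the summed FPKM of the 4 ligands in the Sham rats and 14.4%, 28.9% and 27.5% in the MI/RI rats. Vegfb had the reverse course, with 44.9%, 16.1% and 23.2% in the Sham rats and 78.7%, 53.5% and 62.1% in the MI/RI rats. No share of either ligand in an MI/RI rat fell within the Sham range. The share of Pgf was 3.53% ± 0.719 and 9.43% ± 5.35 and that of Vegfc was 4.65% ± 0.830 and 2.20% ± 0.383 (SD, n = 3 each). Each of these 4 shares was separated between the groups (exact permutation p = 0.1, two-sided, and 3 rats against 3 cannot give a smaller one). The 4 shares add to 100% and are not independent of each other. Summed FPKM of the 4 ligands was 70.2, 77.6 and 43.4 in the Sham rats and 145, 129 and 104 in the MI/RI rats.

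As log2 ratios of FPKM + 0.1, Vegfb to Vegfa went from −1.28 ± 1.09 to 1.4996 ± 0.83 (SD, n = 3 each), a difference of 2.78, or 6.88-fold, and of 3.38 on the log2 scale without Sham replicate 1. Pgf to Vegfa went from −4.10 ± 0.05 to −1.42 ± 0.42 (SD, n = 3 each), a difference of 2.69, or 6.45-fold. The small spread of the Pgf to Vegfa ratio among the Sham rats (0.0605, 0.0570 and 0.0570) contrasts with the spread of either gene alone. This spread, over 3 rats, was picked out after the values were seen. How many other pairs of genes stayed as close was not counted. The Vegfb to Vegfa and Pgf to Vegfa ratios were each separated between the groups (two-sided exact permutation p = 0.1, and 0.17 adjusted over 5 ratios). The ratio of Vegfc to Vegfa overlapped between the groups (difference of 0.39 on the log2 scale, two-sided exact permutation p = 0.5).

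**Figure D2:**
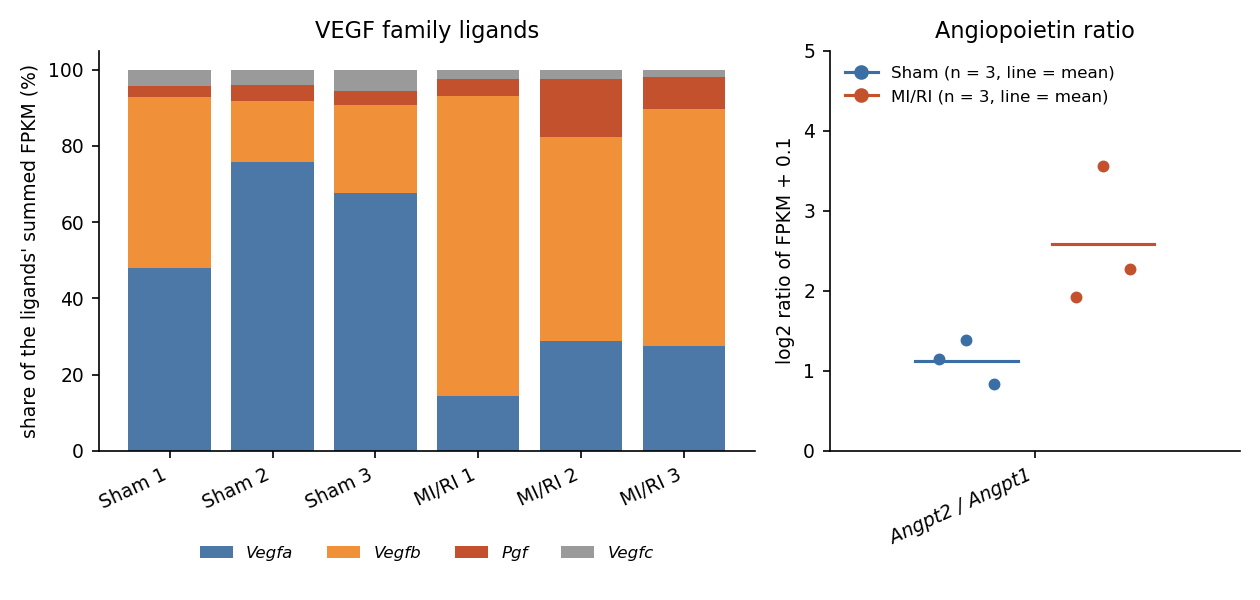
Left, the share of each VEGF family ligand in their summed FPKM (%), as stacked bars for each rat. Right, the log2 ratio of Angpt2 to Angpt1 (FPKM + 0.1) in each rat, with lines at the group means. Vegfa is the largest part of the bar in each Sham rat and Vegfb in each MI/RI rat, and every MI/RI rat lies above all Sham rats in the angiopoietin ratio.

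Vegfb followed the cardiomyocyte markers from rat to rat, a comparison chosen after its values were seen. The mean log2 level of the 9 markers was 9.31, 8.04 and 7.68 in the Sham rats and 11.13, 10.52 and 10.50 in the MI/RI rats, so that Sham replicate 1 was the highest Sham rat both for the markers and for Vegfb. Against that mean in the same rat, the log2 level of Vegfb was −4.32, −4.38 and −4.34 in the Sham rats and −4.29, −4.40 and −4.48 in the MI/RI rats. These 6 values span 0.19 on the log2 scale, or 1.14-fold, whereas the FPKM of Vegfb spanned 11.3-fold over the same rats. How many other genes stayed as close to the markers was not counted, so this closeness is not shown to be particular to Vegfb. The groups differed by −0.05 (two-sided exact permutation p = 0.6, and 0.8 adjusted over 3 genes). Pgf had no such constancy: its 6 values against the markers spanned 4.50-fold, and their group means were −7.17 ± 1.01 and −7.31 ± 1.08 (SD, n = 3 each; two-sided exact permutation p = 0.8). Against the markers, all MI/RI values of Vegfa were below all Sham values, with means of −3.06 ± 1.06 and −5.89 ± 0.75 (SD, n = 3 each). The exact permutation p was 0.1, two-sided, and 0.3 adjusted over 3 genes.

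Among the receptors, Kdr (ENSRNOG00000046829), which encodes VEGFR2, was 4.62, 7.23 and 5.42 FPKM in the Sham rats and 11.5, 8.91 and 8.11 FPKM in the MI/RI rats. All MI/RI rats were above the highest Sham rat, although Sham replicate 2 and MI/RI replicate 3 were close. With means of 5.76 ± 1.34 and 9.52 ± 1.80 FPKM (SD, n = 3 each), the log2 fold change was 0.72 (SE 0.25). Its adjusted p was 0.0501 (limma), just outside the threshold, and 0.045 with the replicate block. On the mitochondria-free scale the log2 fold change of Kdr was −0.05 (adjusted p = 0.91, limma), so the direction of Kdr depended on the scale. The median of all genes tested was −0.48 on that scale and 0.29 as deposited, and Kdr lay above the median on both.

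Tek (ENSRNOG00000008587), which encodes the angiopoietin receptor Tie2, was 14.9, 18.4 and 14.95 FPKM in the Sham rats and 12.0, 11.3 and 9.66 FPKM in the MI/RI rats. It was the single gene of the 9 for which every MI/RI rat was below every Sham rat. The log2 fold change was −0.55 (95% interval −1.03 to −0.06, adjusted p = 0.081, limma). On other scales Tek passed the threshold: the log2 fold change was −0.80 with median centring (adjusted p = 0.012), −1.26 with quantile normalization (adjusted p = 0.0062) and −1.33 on the mitochondria-free scale (adjusted p = 0.0031, all limma).

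Tie1 (ENSRNOG00000020173), the partner of Tek, was 28.8, 31.2 and 21.8 FPKM in the Sham rats and 26.6, 18.5 and 25.2 FPKM in the MI/RI rats. The groups overlapped (log2 fold change −0.22, 95% interval −0.78 to 0.34). The within-rat ratio of Tek to Tie1 also overlapped, with a difference of −0.33 on the log2 scale (two-sided exact permutation p = 0.3, and 0.38 adjusted over 5 ratios).

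Because these receptors are made mainly by endothelial cells, each was set against the mean log2 level of the 14 endothelial markers in the same rat. Kdr was at −1.62, −1.26 and −1.34 in the Sham rats and at −0.25, −0.82 and −1.005 in the MI/RI rats, so all MI/RI rats were higher. Tek was at 0.05, 0.07 and 0.10 in the Sham rats and at −0.20, −0.48 and −0.76 in the MI/RI rats, so all were lower. The differences were 0.72 for Kdr and −0.55 for Tek (two-sided exact permutation p = 0.1, and 0.2 adjusted over 4 comparisons). For Tie1 the difference was −0.23 and the groups overlapped (two-sided exact permutation p = 0.4).

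**Figure D3:**
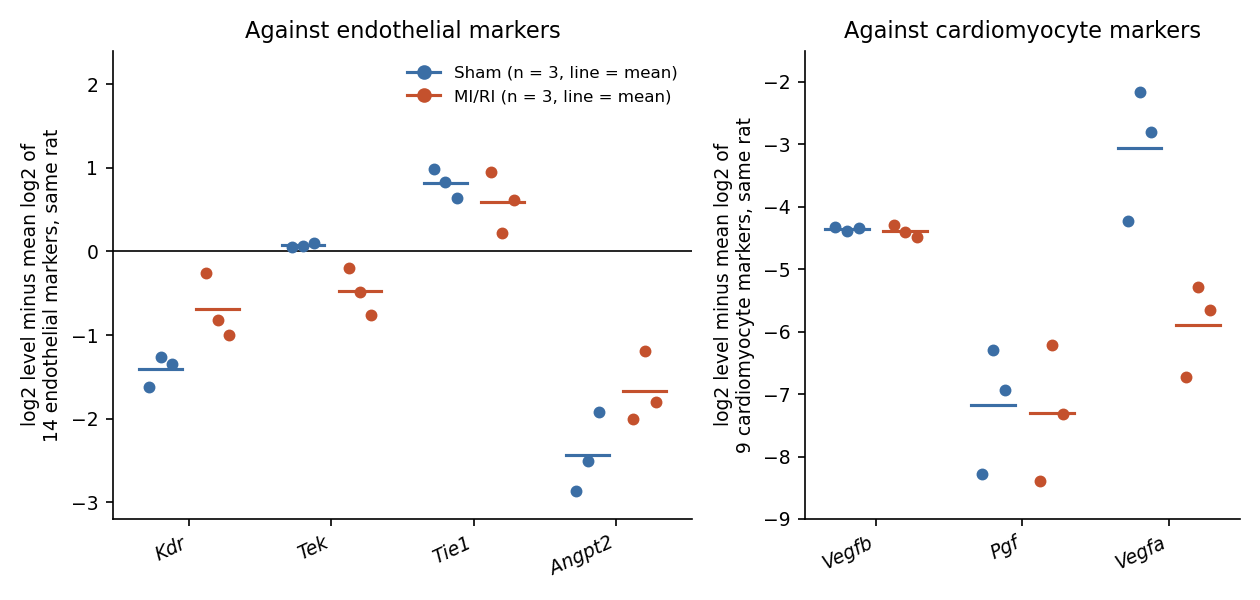
Log2 level in each rat minus the mean log2 level of markers in the same rat, for 14 endothelial markers (left) and 9 cardiomyocyte markers (right), with lines at the group means. The MI/RI points of Kdr all lie above, and those of Tek below, the Sham points, while the 6 points of Vegfb against cardiomyocyte markers lie within 0.19.

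Of the 9 genes, the lowest mean level in both groups was that of Angpt1. Angpt1 (ENSRNOG00000005854), the Tek agonist, was 0.797, 1.09 and 1.98 FPKM in the Sham rats and 0.811, 0.490 and 0.884 FPKM in the MI/RI rats. Sham replicate 3 was highest, and the lowest Sham rat lay within the MI/RI range. The log2 fold change was −0.69 (95% interval −1.52 to 0.14, adjusted p = 0.18, limma), and −0.35 without Sham replicate 3.

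Angpt2 (ENSRNOG00000016696) was 1.89, 2.997 and 3.60 FPKM in the Sham rats and 3.36, 6.85 and 4.64 FPKM in the MI/RI rats, so MI/RI replicate 1 lay below the highest Sham rat. The log2 fold change was 0.77 (SE 0.32; limma, adjusted p = 0.089), and the adjusted p was 0.033 with the replicate block. On the mitochondria-free scale the log2 fold change of Angpt2 was 0.01 (adjusted p = 0.99, limma), where the median of all genes tested was −0.48.

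Within each rat the balance of the angiopoietins separated the groups. Angpt2 to Angpt1 was 2.22, 2.61 and 1.78 in the Sham rats and 3.80, 11.8 and 4.82 in the MI/RI rats, as ratios of FPKM + 0.1. Each MI/RI ratio exceeded each Sham ratio, and MI/RI replicate 2, which had the lowest Angpt1 and the highest Angpt2, stood well above the other rats. The log2 ratio went from 1.12 ± 0.28 to 2.59 ± 0.86 (SD, n = 3 each), a difference of 1.46, or 2.76-fold (two-sided exact permutation p = 0.1, and 0.17 adjusted over 5 ratios). Without MI/RI replicate 2 the difference was 0.98. Against the endothelial markers Angpt2 overlapped between the groups (difference of 0.77, two-sided exact permutation p = 0.2).

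**Figure D4:**
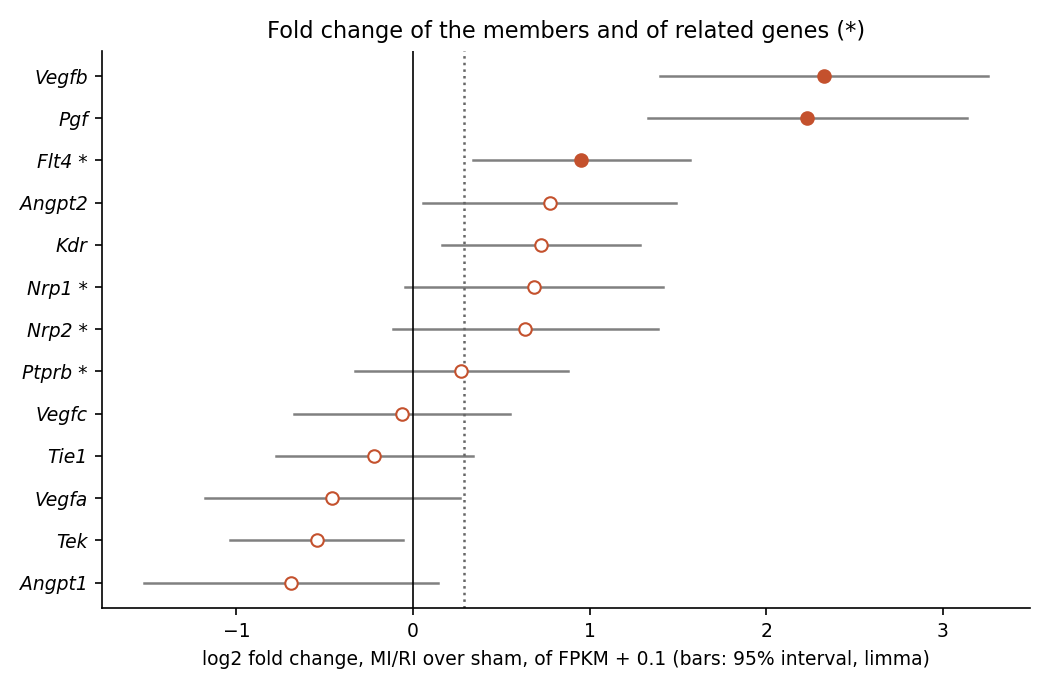
Log2 fold change of MI/RI over Sham (FPKM + 0.1) with the 95% interval from limma, for the 9 genes and, with an asterisk, 4 related genes. Filled points had an adjusted p under 0.05, and the dotted line is the median of all genes tested, 0.29. Vegfb and Pgf stand apart at 2.33 and 2.23, and Flt4 follows at 0.95.

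The order of levels changed between the groups. In the Sham rats the mean FPKM descended from Vegfa (40.6) through Tie1, Vegfb, Tek (16.1), Kdr (5.76), Vegfc, Angpt2 and Pgf to Angpt1 (1.29), and neighbours differed beyond their range only between Tek and Kdr and between Kdr and Vegfc. In the MI/RI rats Vegfb came first (82.6), above the range of Vegfa (29.0), followed by Tie1, Pgf (11.7), Tek, Kdr, Angpt2, Vegfc and Angpt1 (0.728). There, neighbours were separated between Vegfb and Vegfa, between Kdr and Angpt2 and between Vegfc and Angpt1.

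How the genes moved on each scale is shown in the plot of fold changes by scaling. Taken over every gene tested, the median log2 fold change was 0.29 as deposited, 0.04 with median centring, −0.02 with quantile normalization and −0.48 on the mitochondria-free scale. Vegfb and Pgf were called higher on all 4 scales, beside 25.5%, 18.5%, 13.2% and 7.06% of all genes in that order, with log2 fold changes of 1.48 to 2.33 and 1.49 to 2.23. The genes called lower numbered 0 of 9 as deposited, 1 with median centring (Tek), 3 with quantile normalization (Tek, Tie1 and Vegfa) and 5 on the mitochondria-free scale (those 3 with Angpt1 and Vegfc), beside 7.36%, 14.2%, 14.2% and 25.9% of all genes. The endothelial markers called lower on these scales numbered 0, 2, 8 and 6 of 14, and their part in the values of Tek and Tie1 was not tested beyond the levels against these markers given above.

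**Figure D5:**
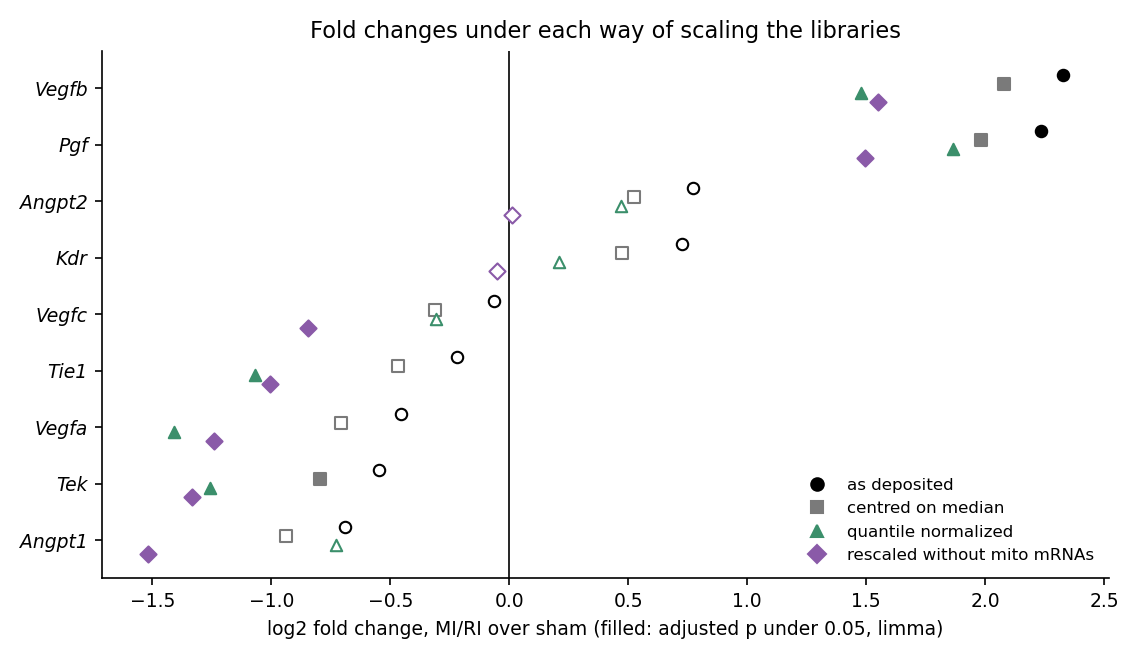
Log2 fold change of each gene under 4 ways of scaling the libraries, marked by shape. Filled marks had an adjusted p under 0.05 (limma). Vegfb and Pgf stay above 1 on every scale, Kdr and Angpt2 move to about 0 on the mitochondria-free scale, and the other 5 genes lie below 0 throughout.

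The other ligands, receptors and partners of the family were taken from a list of 7, of which 6 were found and 4 passed the filter. Flt4, the VEGFC receptor VEGFR3, rose from 0.601, 0.825 and 0.604 FPKM in the Sham rats to 1.64, 1.40 and 1.17 FPKM in the MI/RI rats, without overlap (log2 fold change 0.95, SE 0.28, limma adjusted p = 0.026). The call was lost when Sham replicate 1, Sham replicate 3, MI/RI replicate 1 or MI/RI replicate 2 was left out, and also on the mitochondria-free scale and with no filter on low values. The co-receptors Nrp1 (log2 fold change 0.69, adjusted p = 0.13) and Nrp2 (0.64, adjusted p = 0.17) overlapped between the groups, with MI/RI replicate 1 the highest rat for both. Ptprb, the endothelial phosphatase that restrains Tek, had a log2 fold change of 0.27 (adjusted p = 0.46, limma). Svep1, a matrix protein that binds Tie1, was between 0.138 and 0.250 FPKM in all 6 rats and was not tested. Angpt4 had 0 fragments in every Sham rat and 4, 4 and 1 fragments in the MI/RI rats.

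Of 36 genes of signal transduction below the receptors, 32 were tested, of which 11 rose (34.4%) and 4 fell (12.5%), beside 25.5% and 7.36% of all genes. The median log2 fold change was 0.39, against 0.29 for all genes. Among those that rose were the adaptors Grb14 (2.38), Shb (1.93) and Bcar1 (1.93), the kinase kinase Map2k2 (1.40) and the kinase Akt1 (1.13), as log2 fold changes. The 4 that fell were Plcg1 (−0.79), the phospholipase that Kdr engages, the adaptors Grb10 (−0.78) and Gab1 (−0.69), and Pik3ca (−0.68), the catalytic subunit of PI3-kinase. With the replicate block 2 fell in place of 4, 0 fell when any single sample other than Sham replicate 1 was left out, and 6 to 7 rose in place of 11 without Sham replicate 2, Sham replicate 3 or MI/RI replicate 1. Nos3, the endothelial nitric oxide synthase, overlapped between the groups (log2 fold change 0.17, adjusted p = 0.63, limma). Mapk3 was listed at 0 in all 6 samples. Whether its mRNA was absent or its row missed the fragments was not tested.

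Of 22 genes known to respond to VEGF or to mark sprouting vessels, 21 were found and 20 tested, of which 11 rose (55.0%) and 1 fell (5%; 2 genes without Sham replicate 1), beside 25.5% and 7.36% of all genes, with a median log2 fold change of 1.39 against 0.29 for all genes. The largest rises were those of the nuclear receptors Nr4a3 (4.32) and Nr4a1 (3.86), the feedback inhibitor Spry4 (3.12), Apold1 (2.90) and the endothelial proteoglycan Esm1 (2.67), as log2 fold changes. Of the 11 that rose, Nr4a3, Esm1 and Nr4a2 had Sham means of 0.155, 0.130 and 0.399 FPKM, below the filter of 0.5 FPKM. They passed the filter only through their MI/RI values, so their part in the 55.0% is not independent of the filter. On the mitochondria-free scale 8 of the 20 were higher and 4 lower, beside 7.06% and 25.9% of all genes. Many of these genes also respond to other stimuli. Esm1 was 0.0682, 0.183 and 0.140 FPKM in the Sham rats and 1.29, 1.56 and 1.19 FPKM in the MI/RI rats (adjusted p = 0.0029, limma). Its fragments numbered 6, 19 and 14 in the Sham rats and 99, 128 and 92 in the MI/RI rats. Aplnr, the apelin receptor, was the gene that fell, from 6.45, 9.08 and 10.3 FPKM to 3.22, 1.81 and 2.71 FPKM (log2 fold change −1.71, adjusted p = 0.0037, limma). The Notch ligand Dll4, a tip cell gene, was 6.33 to 6.85 FPKM in the Sham rats and 7.01 to 8.59 FPKM in the MI/RI rats, a separation of small size that did not pass the test (log2 fold change 0.22, adjusted p = 0.44, limma).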

How the data were processed

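Libraries were made from total RNA of rat myocardium with a stranded kit, and the deposited values are FPKM in 1 table with a column for each of the 6 samples. Per the labels, STAR and HTSeq were used, whereas their versions, the genome build, the annotation and the total behind the scaling are not given in the sources used here. Of 30452 rows, 7092 had no symbol and kept their identifier, and rows sharing a symbol were summed, which gave 28293 genes. Genes with a mean of at least 0.5 FPKM (10942) were tested as log2(FPKM + 0.1) with limma 3.58.1 in R 4.3.3 (intensity trend, Benjamini-Hochberg adjustment, threshold 0.05). A log2 fold change on this scale understates changes of low genes. Ratios within a rat were tested by exact permutation, two-sided. The fit was run on simulated data with independent noise, in which few genes moved, equally in both directions. These data have a broad shift between the groups, so that run cannot show how the calls behave under it.

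Whole fragments were recovered for 99.7% of the 16822 genes seen in at least 3 samples, within 0.003 of a whole number. A factor common to all samples cannot be seen, counts describe counting error only, and the absolute depth of a library was not derived. A fit of these counts (voom in limma) was chosen after the data were seen.

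Replicates of a group correlated at 0.928 to 0.962 (Spearman, across genes, which are not independent) and samples of different groups at 0.791 to 0.900. Nothing in the sources pairs the rats. The deviations of same-numbered samples correlated at 0.20, 0.12 and 0.12 across genes, each over 0.1, while Sham replicate 3 and MI/RI replicate 2, which differ in number, correlated at 0.120. The replicate block is given where it changed a call.

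The members, lists and tests were chosen with earlier results of these data known. Named were the 9 genes, the related ligands and receptors, and up to 5 genes per direction with the largest changes in the other lists. Dll4 and Nos3 were named after their values were seen, and Mapk3 because it is listed at 0. Alternatives were other pseudocounts, filters and scalings, limma without the trend, the replicate block and leaving out each sample. No rat is stated to share a litter or batch with another.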

Additional observations from a re-analysis of the deposited data

How the results depend on the processing

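The rise of Vegfb and Pgf held in direction and passed the threshold under each of the 16 alternatives (log2 fold change 1.48 to 2.82 and 1.49 to 2.57). No other of the 9 genes was called as deposited. The count of genes called higher was 2, and 4 with the replicate block, and 3 (Kdr added) with a pseudocount of 1 or at a mean FPKM of at least 5. Kdr was called in 5 of 17 settings. The count called lower was 0 of 9, and 1 with median centring, 3 with quantile normalization and 5 on the mitochondria-free scale. At a mean FPKM of at least 5 it was 1 (Tek) of the 6 tested. Leaving out single samples gave 2 to 3 higher and 0 lower, and the share of all genes called in those fits was not taken. The voom fit on recovered fragments, added after seeing the data, called 3 higher and 0 lower, and 1 gene had an unadjusted p under 0.05 in the lower direction as reported. The log2 fold change of Vegfc was −0.22 to 0.21 with single samples left out, the sign changing without MI/RI replicate 3. That of Kdr was −0.051 on the mitochondria-free scale. Neither was called in these fits. Among the related genes, 0 were called higher on the mitochondria-free scale and 0 to 1 with each sample left out. Of the transducers, 5 of 32 (15.6%) were higher after quantile normalization, beside 13.2% of all genes, and 3 (9.38%) on the mitochondria-free scale, beside 7.06%. There 8 (25%) were lower, beside 25.9%, and 2 were lower with the replicate block, and with each sample left out 6 to 11 were higher and 0 to 3 lower. Of the 20 responders tested, 2 (10%) were lower after centring, 3 (15%) after quantile normalization and 4 (20%) on the mitochondria-free scale. Among all genes, 14.2%, 14.2% and 25.9% were lower on these scales. With each sample left out, 1 to 2 responders were lower. The cause of these changes was not tested. No ratio within a rat changed direction under the alternatives run. With 3 rats a group, the exact test cannot go below 0.1, so it says nothing of stability, and Angpt1, at 77 to 379 fragments, rests on the fewest fragments of the 9 genes. The replicate block changed no other call among the 9 genes.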
